A study of Mus musculus with 4 samples.

Results

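Mouse embryonic stem cell (ESC) cultures hold a small, changing share of cells that transcribe genes of the 2-cell embryo, and the 10 genes described here are regulators known to switch that state on or to hold it off. The members were named by function, with earlier results of these data known: the activators *Dppa2* and *Dppa4*, and the repressors *Kdm1a*, *Zmym2*, *Chaf1a*, *Chaf1b*, *Mga*, *Max*, *L3mbtl2* and *E2f6*. All 10 were found among the 24116 genes of the count table, and all 10 were among the 14896 genes that passed the filter on low counts. RNA-seq compared a wild-type (WT) ESC line, labelled G3 WT N12, with a *Terc*-/- line of generation 3, labelled G3 *Terc*-/- F35 and lacking the RNA component of telomerase, with 2 libraries of each line. Both lines were of the C57BL/6 strain and grew on feeder cells in serum with leukemia inhibitory factor, and neither carried a further allele or treatment in the labels. Each genotype was 1 line, so that genotype and line cannot be told apart, and the labels do not say whether the libraries of a line came from separate cultures.

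In the 2-cell embryo the first wave of transcription includes MERVL retroviruses, genes driven by their MT2 long terminal repeats, and the *Zscan4* cluster. DPPA2 and DPPA4 are small DNA-binding proteins that act as a pair and help to switch on *Dux*, the transcription factor that in turn activates MERVL and the 2-cell genes. On the other side stand 3 repressive machineries: the histone demethylase LSD1 (encoded by *Kdm1a*) with its partner ZMYM2, the histone chaperone CAF-1 (CHAF1A and CHAF1B), which places histones behind the replication fork, and PRC1.6, the variant Polycomb complex in which MGA and MAX, E2F6 and L3MBTL2 recruit the silencing enzymes to promoters of germline genes. MGA and MAX bind the E-box as a dimer, and E2F6 binds the E2F motif.

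*Terc* (gene identifier 21748, GRCm38 chromosome 3, 96414437 to 96414833) was counted 7 and 2 times in WT and 0 times in each G3 *Terc*-/- library, and 0 allows up to 3 counts. Gene counts per library lay between 18047995 and 22520017. The genotypes differed at many genes: 43.5% of the genes tested had an adjusted p under 0.05, 21.7% higher and 21.8% lower in G3 *Terc*-/- ESCs, with a median size of change of 0.23 on the log2 scale. At the study's own cutoffs, a fold change over 2 and an unadjusted p under 0.05, 7.85% of the genes passed. Of 691 genes tested on chromosome 6, 65.1% were called, against 42.4% of the genes on other chromosomes, and no member lies on chromosome 6. All 12 markers of ESCs were tested, of which 9 were higher and 3 lower. The 18 markers of feeder fibroblasts summed to 464 and 313 CPM (counts scaled to library size with TMM factors) in WT replicates 1 and 2 and to 500 and 351 CPM in G3 *Terc*-/- replicates 1 and 2. None of the 18 was at 0 in all libraries, and of 17 tested 7 were higher and 1 was lower in G3 *Terc*-/- libraries. Of these 17, 16 had a log2 fold change above 0, and the median was 0.41 against 0.01 for all genes tested. The part of feeder RNA in the values below was not tested, and in such bulk RNA fewer cells of a type and less RNA per cell cannot be told apart.

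Promoters of members and of PRC1.6 target genes are shown because the E-box and the E2F motif are the sequences by which MGA with MAX and E2F6 are known to find their genes. The sequences are from RefSeq on the build GRCm38.p6, written 5′ to 3′ on the strand of the gene, from 250 bases before the start of transcription to 25 bases after it. Capitals mark the E-box CACGTG and the E2F motif GCGGGAA, which were searched on both strands in windows that reached 50 bases past the start. CACGTG reads the same on both strands, and neither motif overlapped the other in the promoters shown. The first 3 belong to the members whose windows held a motif, and the other two belong to *Ddx4* and *Hormad1*, germline genes that held both motifs.

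Chaf1a promoter, chr17:56040166-56040440, plus strand: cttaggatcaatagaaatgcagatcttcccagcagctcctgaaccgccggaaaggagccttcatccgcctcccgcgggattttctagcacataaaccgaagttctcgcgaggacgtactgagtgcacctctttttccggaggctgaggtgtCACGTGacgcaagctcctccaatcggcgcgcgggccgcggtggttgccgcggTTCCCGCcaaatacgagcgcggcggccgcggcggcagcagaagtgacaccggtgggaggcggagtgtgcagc

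Chaf1b promoter, chr16:93883651-93883925, plus strand: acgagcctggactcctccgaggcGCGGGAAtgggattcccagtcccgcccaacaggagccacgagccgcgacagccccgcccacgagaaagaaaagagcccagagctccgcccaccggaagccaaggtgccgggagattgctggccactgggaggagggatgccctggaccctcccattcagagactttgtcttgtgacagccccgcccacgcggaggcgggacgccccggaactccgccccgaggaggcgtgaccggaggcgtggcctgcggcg

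Max promoter, chr12:76962224-76962498, minus strand: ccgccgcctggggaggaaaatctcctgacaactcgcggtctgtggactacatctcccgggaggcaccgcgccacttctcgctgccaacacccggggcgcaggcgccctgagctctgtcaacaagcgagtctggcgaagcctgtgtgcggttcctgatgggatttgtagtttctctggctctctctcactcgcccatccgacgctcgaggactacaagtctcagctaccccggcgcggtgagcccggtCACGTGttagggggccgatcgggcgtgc

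Ddx4 promoter, chr13:112652286-112652560, minus strand: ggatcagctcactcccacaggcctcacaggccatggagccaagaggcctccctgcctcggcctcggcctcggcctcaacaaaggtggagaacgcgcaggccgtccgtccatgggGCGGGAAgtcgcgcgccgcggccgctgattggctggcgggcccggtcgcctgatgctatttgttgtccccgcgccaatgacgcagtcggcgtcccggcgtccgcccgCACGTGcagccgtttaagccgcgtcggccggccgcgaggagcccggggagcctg

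Hormad1 promoter, chr3:95559427-95559701, plus strand: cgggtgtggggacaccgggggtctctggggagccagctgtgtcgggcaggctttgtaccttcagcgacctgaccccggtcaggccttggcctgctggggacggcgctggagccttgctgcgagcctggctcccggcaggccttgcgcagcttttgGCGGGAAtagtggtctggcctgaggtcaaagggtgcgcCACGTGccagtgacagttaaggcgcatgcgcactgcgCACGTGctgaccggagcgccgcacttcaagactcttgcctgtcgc

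Positions are counted from the start of transcription, with the first transcribed base at 0. The promoter of *Chaf1a* held 1 E-box, 99 bases before the start, and 1 E2F motif, 47 bases before it. The promoter of *Chaf1b* held 2 E2F motifs, 227 bases before the start and 26 bases after it, the latter beyond the stretch shown, and no E-box. In the promoter of *Max* an E-box began 3 bases before the start. The promoters of *Kdm1a*, *Zmym2*, *Mga*, *L3mbtl2* and *E2f6* held neither motif, and those of *Dppa2* and *Dppa4* were not analysed here. For *Mga* the window, from 119896978 to 119897277, lay inside the gene, and the 5′ end of the gene at 119872503 was not searched. In the promoter of *Ddx4*, a helicase gene of germ cells, the E-box began 29 and the E2F motif 136 bases before the start. The promoter of *Hormad1*, a gene of the meiotic chromosome axis, held 2 E-boxes, 57 and 20 bases before the start, and an E2F motif 95 bases before it. Over all 32851 promoters of the table, 7.15% held the E-box, 4.60% the E2F motif and 0.457% both, and over the 14698 promoters of genes tested here the shares were 9.72%, 8.05% and 0.803%. Of 24 promoters of 21 germline genes known as PRC1.6 targets, 14 (58.3%) held the E-box, 10 (41.7%) the E2F motif and 6 (25%) both. These shares are by promoter and not by gene. As for *Mga*, some windows of this list lay inside the gene. The window of *Stag3*, which held both motifs, ran from 138280259 to 138280558, while the gene begins at 138272514. The window of *Stra8*, with neither motif, began at 34920698, inside a gene that begins at 34920163. *Hormad1* and 1 further gene with a motif entered with 2 overlapping windows each, so that the same sites were counted more than once. None of 18 promoters of 2-cell transcripts held either motif. These promoters also differed in CpG content, with a median of 22.5 CpG per window in the germline list, 20 over the promoters of genes tested, 7 over all promoters and 2 in the 2-cell list, and its part in the shares was not tested.

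**Figure D1:**
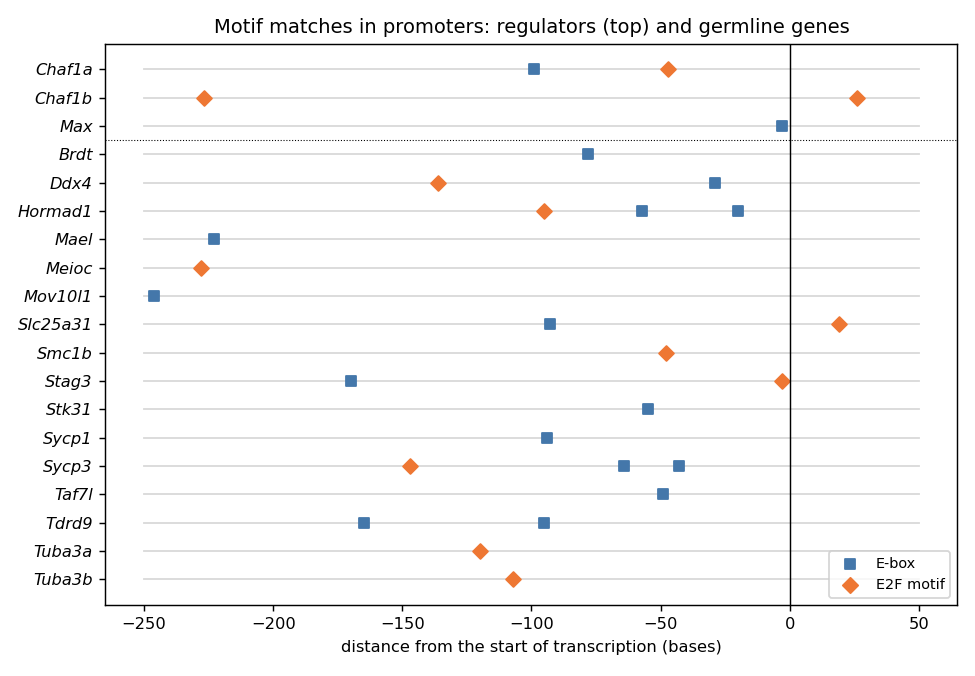
Matches to the E-box (squares) and the E2F motif (diamonds) in promoters of members (above the dotted line) and of germline genes known as PRC1.6 targets, by distance in bases from the start of transcription (0). Only genes with a match are drawn, with 1 promoter per gene. *Chaf1a* is the only member with both motifs, and 5 germline genes have both, among them *Stag3*, whose window lies inside the gene.

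Of the 10 regulators, 4 were called between the genotypes, *Dppa2* and *L3mbtl2* higher and *Chaf1b* and *Dppa4* lower in G3 *Terc*-/- ESCs. That is a share near the 43.5% called over all genes (21.7% higher and 21.8% lower). None of the 10 reached a 2-fold change, where 7.85% of all genes passed the study's cutoffs. The median log2 fold change was -0.08 for the members and 0.01 for all genes tested, and the median size of change was 0.10 against 0.23. For 8 of the 10 members the libraries of the genotypes did not overlap in CPM, 3 higher and 5 lower, against 70.4% of all genes. Adjusted p-values come from the quasi-likelihood test of edgeR and were adjusted by Benjamini-Hochberg over all genes tested. An exact permutation test, two-sided, on 1 gene alone has a smallest possible p of 0.333 at 2 libraries against 2.

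**Figure D2:**
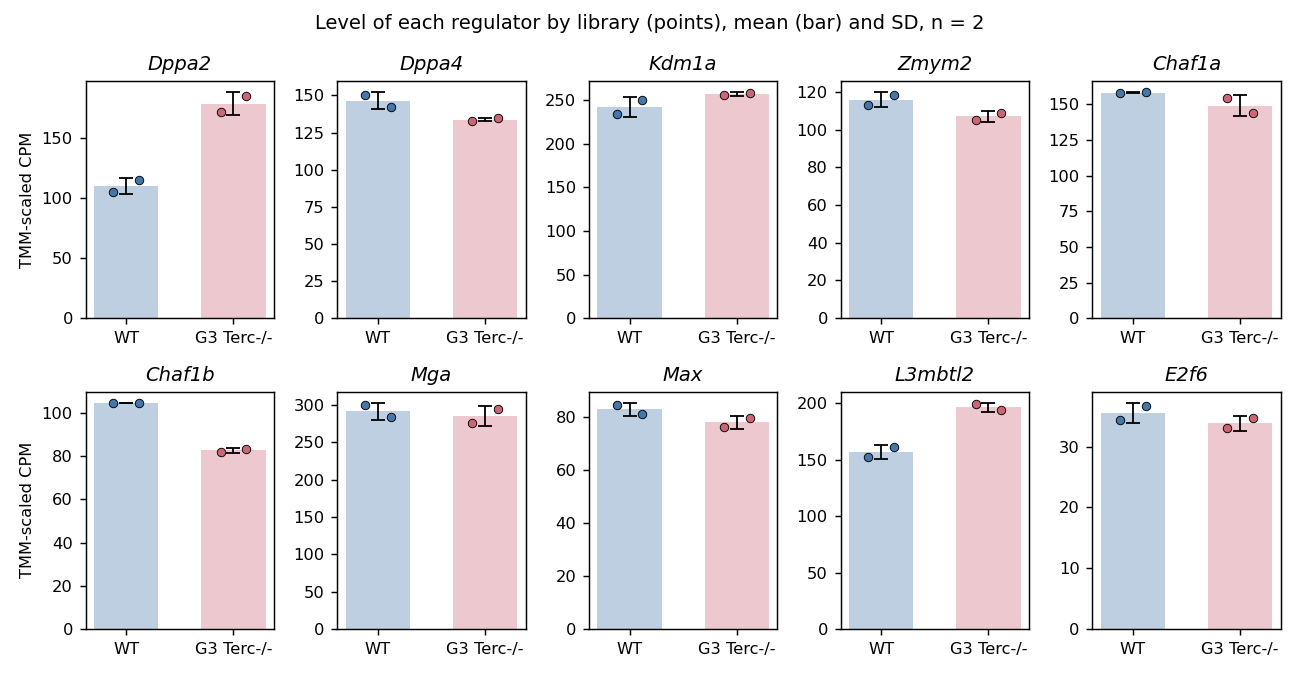
TMM-scaled CPM of the 10 regulators in the WT and G3 *Terc*-/- libraries, with points for libraries, bars for means and error bars for the SD (n = 2). *Dppa2* and *L3mbtl2* are higher and *Chaf1b* is lower in both G3 *Terc*-/- libraries, and the other genes lie close together, with overlapping libraries for *Mga* and *E2f6*.

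The activator *Dppa2* (gene identifier 73703, GRCm38 chromosome 16, 48310274 to 48319513) changed most. It had 105 and 115 CPM in the WT libraries and 172 and 185 CPM in the G3 *Terc*-/- libraries, from 2297 and 2548 and from 3804 and 3376 counts. Both G3 *Terc*-/- libraries stood well above both WT libraries. The log2 fold change was 0.69 (standard error, SE, 0.057, edgeR adjusted p = 1.10e-13), a rise of 61.9% with a 95% confidence interval from 0.58 to 0.81 on the log2 scale. The call was kept in all 11 alternative fits, with values between 0.63 and 0.76.

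*Dppa4* (gene identifier 73693), which encodes the partner of DPPA2, lies beside it on chromosome 16, from 48283735 to 48294292, on the same strand. It had 150 and 142 CPM in WT and 133 and 135 CPM in G3 *Terc*-/- libraries, so that both G3 *Terc*-/- libraries were a little below both WT libraries. The log2 fold change of *Dppa4* was -0.13 (SE 0.054, edgeR adjusted p = 0.0475). This call rested on single libraries and settings, since the adjusted p was 0.418 without WT replicate 1, 0.101 without WT replicate 2 and 0.0553 without G3 *Terc*-/- replicate 1, and 0.117 with upper-quartile factors, 0.114 with DESeq2 and 0.0620 with a stricter filter. Within a library, the ratio of *Dppa2* to *Dppa4* per length was 0.475 and 0.548 for WT against 0.877 and 0.934 for G3 *Terc*-/-. The mean ratio was 0.512 in WT and 0.905 in G3 *Terc*-/- ESCs, and the mean log2 ratios differed by 0.83, more than the spread between libraries (SD 0.15 and 0.064), and a ratio of genes within a library does not depend on the scaling between libraries. The 3 tested genes next to the pair on one side, *Morc1*, *Dzip3* and *Cip2a*, had log2 fold changes of 0.13 (adjusted p = 0.112), 0.20 (adjusted p = 0.0250) and 0.19 (adjusted p = 0.0110), and *Nectin3*, the nearest tested gene on the other side, had -0.49 (adjusted p = 1.12e-06), all from edgeR. Beyond *Nectin3* on that side, *Gm4737* had 0.50 (adjusted p = 0.0140) and *Plcxd2* -0.42 (adjusted p = 0.0672), also from edgeR. Each of these changes was smaller in size than the rise of *Dppa2*, and the part of the region in that rise was not tested. The 13 other genes tested within 2.5 Mb of *Dppa2* had a median of -0.13 on the log2 scale, and 3 were higher and 4 lower. *Nectin3* and these neighbours were named after their values were seen, for their position.

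*Kdm1a* (gene identifier 99982, chromosome 4 from 136550533 to 136602787) encodes LSD1, which removes methyl groups from lysine 4 of histone H3. It had 234 and 250 CPM in WT and 255 and 258 CPM in G3 *Terc*-/- libraries, without overlap but close together. Its log2 fold change was 0.085 (SE 0.051, edgeR adjusted p = 0.176), with an interval from -0.017 to 0.19. *Zmym2* (gene identifier 76007, chromosome 14 from 56886529 to 56962358), a zinc finger protein that binds LSD1 complexes, had 113 and 119 CPM in WT and 105 and 109 CPM in G3 *Terc*-/- libraries. The values of *Zmym2* did not overlap between the genotypes, and the log2 fold change of -0.12 (SE 0.057, edgeR adjusted p = 0.0984) missed the threshold. It passed with an adjusted p of 0.0450 without G3 *Terc*-/- replicate 2.

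Of the 10 other subunits of LSD1-CoREST complexes, 3 were higher, 1 was lower and 6 were not called, with a median log2 fold change of 0.007. By comparison, 21.7% of all genes tested were higher and 21.8% lower. *Rcor2*, a CoREST scaffold, rose by 0.51 log2 units (SE 0.051, edgeR adjusted p = 3.93e-11), from 176 and 181 to 258 and 249 CPM. *Hdac1*, the histone deacetylase that LSD1 and Polycomb complexes share, rose by 0.19 (edgeR adjusted p = 0.00122), and *Gse1* fell by 0.30 (edgeR adjusted p = 3.49e-05). The sums of the list were 1098 and 1093 CPM in WT and 1192 and 1199 CPM in G3 *Terc*-/- libraries.

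CAF-1 has a large subunit, CHAF1A, and a middle subunit, CHAF1B, which work as one complex. *Chaf1b* (gene identifier 110749, chromosome 16 from 93883900 to 93906115) had 105 CPM in both WT libraries and 81.9 and 83.5 CPM in G3 *Terc*-/- libraries, with the replicates of each genotype nearly alike. It fell by 0.34 log2 units (SE 0.059, edgeR adjusted p = 6.98e-06), which is a change of -20.9%, and the call was kept in all 11 alternative fits, with values between -0.35 and -0.31. *Chaf1a* (gene identifier 27221, chromosome 17 from 56040416 to 56068026) had 158 CPM in both WT libraries and 154 and 144 CPM in G3 *Terc*-/- libraries. Both G3 *Terc*-/- libraries of *Chaf1a* were below WT, with a log2 fold change of -0.084 (SE 0.054, edgeR adjusted p = 0.212) and an interval from -0.19 to 0.025. Without G3 *Terc*-/- replicate 1 the adjusted p of *Chaf1a* was 0.0278. Its ratio to *Chaf1b* per length of merged exons was 0.799 and 0.801 for WT against 0.995 and 0.912 for G3 *Terc*-/-. The ratio was thus higher in both G3 *Terc*-/- libraries than in WT. Its size depends on the length used. With the longest protein-coding transcript as length, the mean ratio was 0.525 in WT and 0.626 in G3 *Terc*-/- ESCs. In the annotation used for lengths (GENCODE vM21), 52.5% of the exon bases of *Chaf1a* are shared with *Ubxn6* on the other strand. The counts carry NCBI identifiers, and at the positions of those genes *Chaf1a* and *Ubxn6* overlap only from 56067045 to 56068026. The part of the *Chaf1a* counts that lies in the overlap was not tested. The strand setting of the counting is not given in the sources used here. It is thus not known whether reads of the 2 genes in the shared bases were told apart. *Ubxn6* had a log2 fold change of 0.072 (edgeR adjusted p = 0.451).

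Among 11 further histone chaperones and partners of CAF-1, 1 was higher, 4 were lower and 6 were not called, with a median of -0.06. Over all genes tested, 21.7% were higher and 21.8% lower. *Hat1*, which acetylates new histone H4 before it is deposited, fell by 0.52 log2 units (edgeR adjusted p = 8.62e-12), from 453 CPM in both WT libraries to 307 and 327 CPM. *Cabin1*, a subunit of the HIRA complex, fell by 0.19 (edgeR adjusted p = 0.00682). *Ubn2*, another HIRA subunit and the 1 gene of the list that rose, with a log2 fold change of 0.63 (edgeR adjusted p = 4.19e-10), lies on chromosome 6. Without it, 0 of 10 chaperone genes were higher and 4 were lower by edgeR.

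Of the 4 members that belong to PRC1.6, *L3mbtl2* alone was called, against 43.5% of all genes tested. *L3mbtl2* (gene identifier 214669, chromosome 15 from 81663889 to 81688315), which encodes the chromatin-compacting MBT-domain subunit, had 152 and 161 CPM in WT and 199 and 194 CPM in G3 *Terc*-/- libraries, with both G3 *Terc*-/- libraries above WT. It rose by 0.33 log2 units (SE 0.053, edgeR adjusted p = 2.01e-06), a rise of 25.4%, and kept its call in all 11 alternative fits, between 0.28 and 0.37. The gene shares 17.2% of its exon bases with *Chadl* on the other strand, and *Chadl*, counted 398 and 419 times in WT and 577 and 445 times in G3 *Terc*-/- libraries, had a log2 fold change of 0.44 (edgeR adjusted p = 8.70e-05). *L3mbtl2* itself was counted 3324 to 4417 times. The 17.2% is of the exons of GENCODE vM21, whereas the counts carry NCBI identifiers. As the strand setting is not given, it is not known whether reads of the shared bases were told apart. Their part in the values of both genes was not tested.

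*Mga* (gene identifier 29808, chromosome 2 from 119872503 to 119970129), the scaffold of PRC1.6, had 299 and 284 CPM in WT and 276 and 295 CPM in G3 *Terc*-/- libraries, and the genotypes overlapped. Its log2 fold change was -0.031 (SE 0.051, edgeR adjusted p = 0.659), with an interval from -0.13 to 0.072, and it lay between -0.075 and 0.011 with each library left out in turn. *Max* (gene identifier 17187, chromosome 12 from 76937269 to 76962323), which dimerises with MGA and also with MYC, had 84.7 and 81.2 CPM in WT and 76.4 and 79.9 CPM in G3 *Terc*-/- libraries. The log2 fold change of *Max* was -0.087 (SE 0.062, edgeR adjusted p = 0.263), with an interval from -0.21 to 0.037. *E2f6* (gene identifier 50496, chromosome 12 from 16810909 to 16826752), an E2F family member without an activation domain, had 34.3 and 36.7 CPM in WT and 33.0 and 34.7 CPM in G3 *Terc*-/- libraries, which overlapped. Its log2 fold change was -0.070 (SE 0.076, edgeR adjusted p = 0.482), with an interval from -0.22 to 0.084. For the 6 regulators that were not called, the intervals together ran from -0.23 to 0.19, which leaves room for changes of that size and for no change of 2-fold. Of these intervals only that of *Zmym2* excluded 0.

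**Figure D3:**
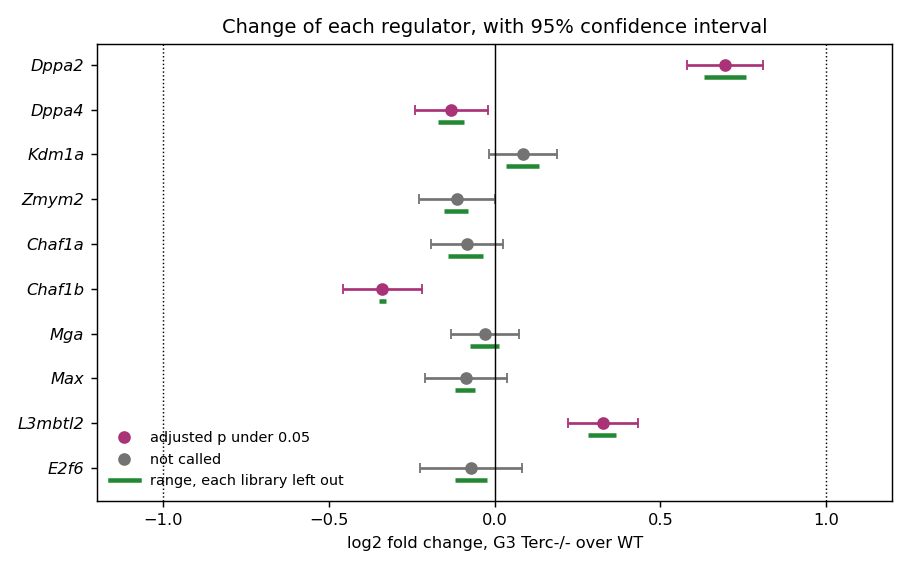
Log2 fold change of the 10 regulators in G3 *Terc*-/- over WT ESCs, with the 95% confidence interval of the edgeR fit (horizontal bars) and the range of the value with each library left out in turn (green lines). Dotted lines mark a 2-fold change, and all 10 intervals lie between them, from *Dppa2* at 0.69 to *Chaf1b* at -0.34.

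The other 12 subunits of PRC1.6 were divided, with 5 higher, 5 lower and 2 not called, and a median log2 fold change of -0.08. Shares over all genes tested were 21.7% higher and 21.8% lower. *Cbx3*, which encodes the heterochromatin protein HP1γ, fell by 1.24 log2 units (SE 0.061, edgeR adjusted p = 9.09e-21), from 156 and 167 to 64.4 and 72.2 CPM, and lies on chromosome 6. *Cbx1*, which encodes HP1β, fell by 0.59 (edgeR adjusted p = 1.41e-12), from 240 and 257 to 159 and 170 CPM. *Pcgf6*, the Polycomb ring finger that defines the complex, fell by 0.34 (edgeR adjusted p = 4.46e-06), from 117 and 120 to 90.1 and 97.0 CPM. Without the genes of chromosome 6, 5 of 10 subunits were higher and 3 were lower, and the median turned to 0.09. The 3 subunits named here had the smallest edgeR p of the list, and all of them fell. Genes of the complex thus moved in both directions, *L3mbtl2* with the 5 higher subunits and *Pcgf6* among the 5 lower. *Mga*, *Max* and *E2f6* were not called.

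Levels of the 10 regulators can be compared with each other only per length, and were set on RPKM of merged exons. On this scale the levels in WT ESCs spanned 14.0-fold, from *E2f6* at 6.27 ± 0.30 (SD, n = 2) to *Dppa4* at 88.1 ± 3.42 (SD, n = 2) RPKM. *Kdm1a* at 46.7 ± 2.31 and *Dppa2* at 45.0 ± 2.81 RPKM followed *Dppa4* and overlapped each other. Then came *L3mbtl2* at 26.4, *Max* at 23.1, *Chaf1b* at 22.3, *Mga* at 19.0, *Chaf1a* at 17.9 and *Zmym2* at 14.7 RPKM, with no overlap between neighbours in this order. In G3 *Terc*-/- ESCs *Dppa2* stood second at 72.9 ± 3.90 RPKM (SD, n = 2), above *Kdm1a* at 49.6 ± 0.39 and below *Dppa4* at 80.5 ± 0.73, in both libraries. *Mga* at 18.6 RPKM stood above *Chaf1b* at 17.7 RPKM there, and the places of the other genes were those of WT. With the length of the longest protein-coding transcript in place of merged exons, a choice made after seeing the data, the levels in WT spanned 6.74-fold, from *E2f6* at 14.7 to *Dppa4* at 99.0 RPKM. On that length *Kdm1a* stood above *Dppa2* in both libraries of each genotype, at 79.9 against 45.0 RPKM in WT and at 84.8 against 72.9 RPKM in G3 *Terc*-/- ESCs. *Chaf1b* at 54.4 RPKM was also above *Dppa2* in WT, and *Chaf1a* stood at 28.6 RPKM. The order of the genes thus depends on which exons are counted as the gene, with *Dppa4* highest on both lengths in both genotypes.

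**Figure D4:**
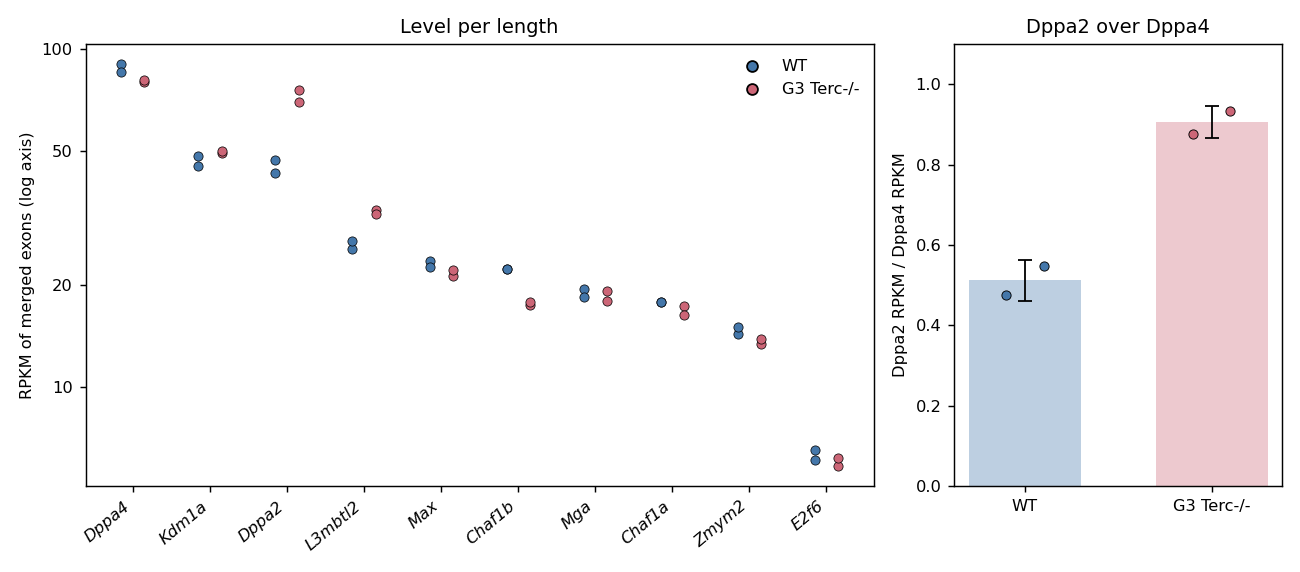
Left, RPKM of merged exons (log axis) of the 10 regulators in each WT and G3 *Terc*-/- library, ordered by the WT mean. Right, the ratio of *Dppa2* to *Dppa4* RPKM within each library (points), with means (bars) and SD (n = 2). On this length *Dppa2* lies beside *Kdm1a* in WT and above it in G3 *Terc*-/- ESCs, whereas on the length of the longest protein-coding transcript it lies below *Kdm1a* in both. The ratio goes from 0.512 to 0.905.

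Other known activators and repressors of the 2-cell state gave the setting of these values. Of 7 other activators, 5 were in the counts, with 1 higher, 2 lower and 2 not called, and *Duxf3* (*Dux*), the target of DPPA2 and DPPA4, was not analysed here. *Tbx3*, a T-box factor known to raise *Zscan4* expression, rose by 1.81 log2 units (SE 0.054, edgeR adjusted p = 1.13e-27), from 116 and 121 to 394 and 436 CPM. *Dppa3*, a maternal factor, fell by 1.22 (edgeR adjusted p = 2.94e-17) and lies on chromosome 6, and *Nelfa*, a subunit of the negative elongation factor, fell by 0.26 (edgeR adjusted p = 0.000384). Of 16 other repressors, 3 were higher, 7 were lower and 6 were not called, with a median of -0.07. Beside both lists, 21.7% of all genes tested were higher and 21.8% lower. *Smchd1*, which silences *Dux* and the inactive X chromosome, fell by 0.71 (edgeR adjusted p = 4.38e-14), from 149 and 150 to 89.5 and 94.1 CPM. *Lin28a*, an RNA-binding protein that with nucleolin holds *Dux* silent, fell by 0.42 (edgeR adjusted p = 1.22e-09), while *Trim28*, the corepressor of KRAB zinc finger proteins, rose by 0.41 (edgeR adjusted p = 9.46e-10).

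Readouts of the 2-cell state were high in the G3 *Terc*-/- line. MERVL-int, the internal part of MERVL, stood at 680 and 660 CPM of the transposable element (TE) counts for WT, against 3593 and 3421 CPM for G3 *Terc*-/-, with a log2 fold change of 2.39 (SE 0.041, edgeR adjusted p = 2.69e-11), and 24.8% of the 917 TE families tested were called. MT2_Mm had a log2 fold change of 1.38 (SE 0.044) and L1Md_T, a young LINE1 family that DPPA2 and DPPA4 are known to activate, of 1.15 (SE 0.031). Of 33 transcripts of the 2-cell stage, 32 were in the counts and 22 passed the filter on low counts, many of them through the G3 *Terc*-/- libraries alone, so that their shared direction is no evidence. *Calcoco2*, counted 765 and 915 times in WT and 2331 and 2077 times in G3 *Terc*-/- libraries and so passing in either genotype, rose by 1.52 log2 units (edgeR adjusted p = 1.60e-21). *Zscan4d* was counted 18 and 22 times in WT and 243 and 234 times in G3 *Terc*-/- libraries, and the *Zscan4* paralogs can share reads.

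Germline genes known as PRC1.6 targets showed no common direction. Of 24, 21 were tested, with 4 higher, 4 lower and 13 not called, and the median was 0.07 against 0.01 for all genes tested. Among all genes tested, 21.7% were higher and 21.8% lower. *Dazl*, an RNA-binding protein of germ cells, rose by 1.32 log2 units (SE 0.11, edgeR adjusted p = 9.83e-14), from 9.07 and 9.52 to 22.2 and 24.3 CPM, and its promoter window held neither motif. *Stra8*, the gatekeeper of meiosis, fell by 1.24 (edgeR adjusted p = 2.12e-08) and lies on chromosome 6, and *Zcwpw1*, a histone reader of meiosis, fell by 0.59 (edgeR adjusted p = 2.01e-06). *Hormad1*, shown above with 2 E-boxes and an E2F motif, rose by 0.55 (edgeR adjusted p = 2.56e-05), from 13.0 and 14.2 to 19.3 and 20.4 CPM, and *Ddx4*, shown above with both motifs, had a log2 fold change of 0.025 (edgeR adjusted p = 0.792). These 2 genes were named for their promoters after their values were seen. Without the 3 tested genes of chromosome 6, 4 of 18 were higher and 2 were lower.

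**Figure D5:**
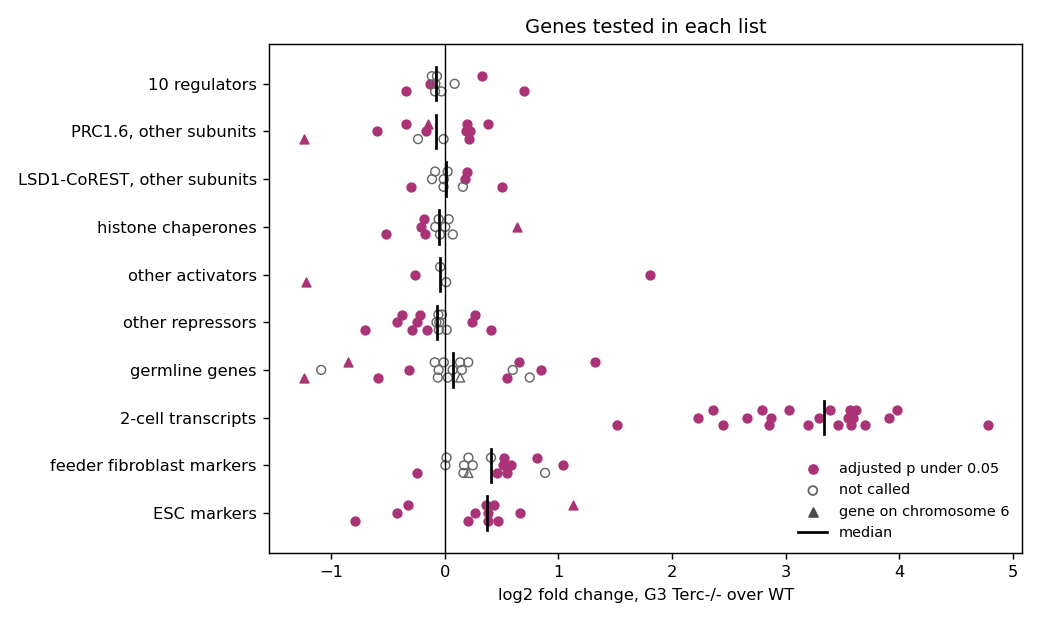
Log2 fold change in G3 *Terc*-/- over WT ESCs of each gene tested in each list, with filled points for an adjusted p under 0.05, open points for genes not called, triangles for genes on chromosome 6 and vertical lines for the median of the list. The 10 regulators, their complexes and the germline genes lie on both sides of 0, while the 22 tested 2-cell transcripts, many of which passed the filter on low counts only through the G3 *Terc*-/- libraries, lie between 1.52 and 4.78.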

How the data were processed

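RNA-seq of 2 WT and 2 G3 *Terc*-/- ESC libraries was analysed from the raw counts per gene and per TE copy that the authors deposited. The paper's methods give alignment to mm10 with STAR, and the submitters' processing notes also name Trim Galore and featureCounts; the strand setting is not given in the sources used here. Genes carry NCBI identifiers, of which 24061 of 24116 were matched to symbols and positions on GRCm38. edgeR 4.0.16 in R 4.3.3 (TMM, filterByExpr, quasi-likelihood test, no term but genotype) was fitted over all genes and, with TE counts summed by repeat name, over all families, with Benjamini-Hochberg adjustment and a threshold of 0.05. RPKM used merged exons of GENCODE vM21. Alternatives were DESeq2 1.42.0, other scalings, filters and cutoffs, a replicate block, and leaving out each library. The fit was tested on simulated counts. The members and lists were chosen with earlier results of these data known. The text names *Terc*, all members, the 3 genes of smallest p per regulator or germline list, up to 6 2-cell transcripts, 3 TE families, and genes chosen by position as stated. The study used Cufflinks, which was not repeated here.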

Additional observations from a re-analysis of the deposited data

How the results depend on the processing

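*Dppa2*, *L3mbtl2* and *Chaf1b* kept their direction and call in all 11 alternative fits, and *Kdm1a*, *Max* and *E2f6* stayed uncalled with their direction in all 11. *Dppa4* lost its call in 6 of 11, so that 1 member was lower with upper-quartile factors, with DESeq2 and with the stricter filter of 50 counts. At the study's cutoffs 0 members were higher and 0 lower, and 704 genes were higher and 466 lower. DESeq2 called 2076 genes higher. Scaling by the gene counts gave 151 TE families higher and 51 lower in place of 121 and 106, a share higher of 74.8% in place of 53.3%. Over the fits that left out 1 library, the members called lower numbered 1 to 3, those called higher 2 in each case, and the log2 fold change of *Mga* ran from -0.075 to 0.011. In these fits the lone library of a genotype was assumed to vary like the other. The causes of these shifts were not tested.

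The replicate numbers pair no samples by label. The summed feeder markers were higher in replicate 1 than in replicate 2 of both genotypes, at 464 against 313 CPM in WT and 500 against 351 CPM in G3 *Terc*-/-. Over all genes tested, the deviations of same-numbered libraries correlated at 0.110 in 1 comparison. With the number as a replicate block, 2 members were higher and 3 lower, *Zmym2* being added at an adjusted p of 0.0485 (edgeR), and 3551 genes were higher and 3583 lower. With the longest protein-coding transcript as length, the ratio of *Dppa2* to *Dppa4* was 0.455 in WT and 0.806 in G3 *Terc*-/- ESCs. Each member had 634 to 6539 counts per library, and the design of 2 libraries of 1 line per genotype limits what the differences can be tied to.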
